A study of Mus musculus with 8 samples.

Results

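Nucleoporins build the nuclear pore, and importins and exportins carry proteins and RNAs through it. Their transcripts were followed here in mouse embryos at the 2-cell stage that carried the Brg1 mutant label, set against wild type embryos. The genes were taken by symbol from the annotation of the array: any Nup followed by a digit, and any symbol that begins with Kpna, Kpnb, Ipo, Tnpo or Xpo. This gave 42 genes of 18193 with a probe set of 1 symbol, read by 111 of 34945 such probe sets. They comprise 19 nucleoporins, 6 importin alphas, 11 import receptors of the importin beta family and 6 exportins, and the oocyte importin Kpna7 is among them. Each gene is described by its brightest probe set (mean log2 signal over the 8 arrays), and 40 of the 42 lay in the upper 50% of probe sets by mean signal, the part of the array that was tested. The 2 left out were Nup210 and its relative Nup210l.

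Each sample was RNA pooled from 20 embryos and hybridised to 1 array, and there were 4 Brg1 mutant and 4 wild type samples, called biological replicates. The series title speaks of maternal BRG1 and of zygotic genome activation, BRG1 being the ATPase of BAF chromatin remodelling complexes that Smarca4 encodes. The allele, any Cre driver, the strain and the age of the mothers are not given in the sources used here, and no sentence in them says whether pools came from separate collections, so a p-value here covers spread among the samples, which may be technical. Signals are array intensities scaled to the same trimmed mean on every array, so a lower signal is a lower share of the RNA, and less RNA per cell cannot be told apart from fewer cells that hold it.

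The nuclear pore is a ring of scaffold complexes anchored in the nuclear envelope, with a channel lined by disordered phenylalanine-glycine repeats. Importin alpha binds a basic localisation signal on the cargo and importin beta carries the pair through the channel, while other members of the beta family bind their cargo directly. The small GTPase Ran, loaded with GTP inside the nucleus, releases imported cargo and is needed by exportins to hold theirs. In the early mouse embryo pores and receptors made by the oocyte serve the first nuclei, and importin alpha forms differ in how much oocytes and early embryos use them.

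Smarca4 itself was lower in the mutants on 1 of its 2 probe sets. That probe set read 387.5, 200.9, 273 and 291.3 in mutants, against 796, 632.1, 612.1 and 660.6 in wild type. The groups did not overlap (log2 change -1.26, SE 0.25, limma adjusted p = 0.0211). The other read 146.1 to 451.1 in mutants and 193.8 to 302.9 in wild type (log2 change 0.037, SE 0.33, limma adjusted p = 0.963). Which part of the transcript either one covers is not given. The mutant arrays fell into pairs. Over the tested probe sets, r between mutant replicates 3 and 4 was 0.969 and their r with wild type arrays 0.747 to 0.758, whereas replicates 1 and 2 correlated with wild type arrays at 0.828 to 0.890. Of 19 granulosa and cumulus markers with a probe set, 12 read higher on both arrays 3 and 4 than on any other array. The summed signal of the 19 was 20251 to 23859 there, against 1798 to 2930 in mutant replicates 1 and 2 and 2691 to 3540 in wild type. Hsd3b1, Vim, Inha and Inhba led them, and 0 of 19 were under the background bound on all arrays. Of the genes of expanded cumulus on the list, Ptx3 and Has2 read at most 26.9 on any array and Ptgs2 at most 77.9, while Tnfaip6 read 107.1 and 123.7 on arrays 3 and 4, against at most 56.9 elsewhere. Summed signals of 5 blood and leukocyte markers were 671 to 757 on arrays 3 and 4, against 224 to 245 in mutant replicates 1 and 2 and 199 to 264 in wild type. In the same order of arrays, the sums were 1241 to 1401, against 662 to 897 and 538 to 825, for 6 oviduct markers. They were 88.4 to 107, against 189 to 223 and 154 to 180.1, for 6 sperm markers. Taken singly, 3 of the 5 blood and leukocyte markers and 2 of the 6 oviduct markers read higher on both arrays 3 and 4 than on any other array. Cd52 read 360.4 and 453.1 there and Krt8 554.6 and 618.7, while Pax8 and Foxj1 read lower there than on any other array. For 5 oocyte and 2-cell markers, by contrast, the sum was highest on mutant arrays 1 and 2, at 16670 to 17641, against 9918 to 11131 on arrays 3 and 4 and 8378 to 10517 in wild type. That sum joins markers that moved in opposite directions. Dppa3, Pou5f1 and Zp3 read lower on both arrays 3 and 4 than on any wild type array, while Nlrp5 and Zar1 read higher. Zar1 read 2438.6 and 2482.8 there and 2066.4 and 2819.5 on mutant arrays 1 and 2, against at most 410.7 in wild type. Ratios of 3 prime to 5 prime signal were lower in mutants than in wild type, 4.88 to 15.05 against 16.3 to 21.1 for actin and 6.63 to 7.33 against 8.58 to 10.1 for Gapdh. Neither passed after adjustment (exact two-sided permutation p = 0.0286 for each, the smallest that 70 assignments allow, adjusted p = 0.114 over 8 array measures). For both ratios the groups did not overlap at all, so this test could miss the threshold even at full separation. Hybridisation controls summed to 107124 to 153075 on mutant arrays 1 and 2, against 22704 to 39449 on arrays 3 and 4 and 23828 to 39260 in wild type. Whether the pools of mutant replicates 3 and 4 held cells other than those of the embryo is not given in the labels, so RNA of the embryos and of any other cells cannot be told apart on these arrays. The part of any of these measures in the results below was not tested. For the genes that passed and those that differed most between the pairs, values for each pair are also given.

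Of the 40 tested genes, Nup85, a scaffold nucleoporin, rose in the Brg1 mutants. Nup43, another scaffold nucleoporin, and Ipo9, an import receptor, fell. The other 37 did not pass the test (limma over all 22518 tested probe sets, Benjamini-Hochberg adjusted p under 0.05). The 3 genes are 7.5% of those tested. Over all 11934 genes tested 7.04% passed, 3.01% as higher and 4.03% as lower in mutants, so the share that passed was near that of the whole array. Of the 40, 28 had a negative and 12 a positive change, with a median log2 change of -0.26 beside -0.05 over all genes. Changes were under 0.5 log2 units in size for 60% of them and for 55.2% of all genes. The 4 mutant and 4 wild type arrays did not overlap for 8 of 40 (20%), beside 18.7% of all genes, 8.1% with all mutant arrays higher and 10.6% with all lower. These were Nup85 and Nup93 with every mutant array higher, and Nup43, Nup98, Nup153, Kpna1, Kpna6 and Ipo9 with every mutant array lower.

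**Figure D1:**
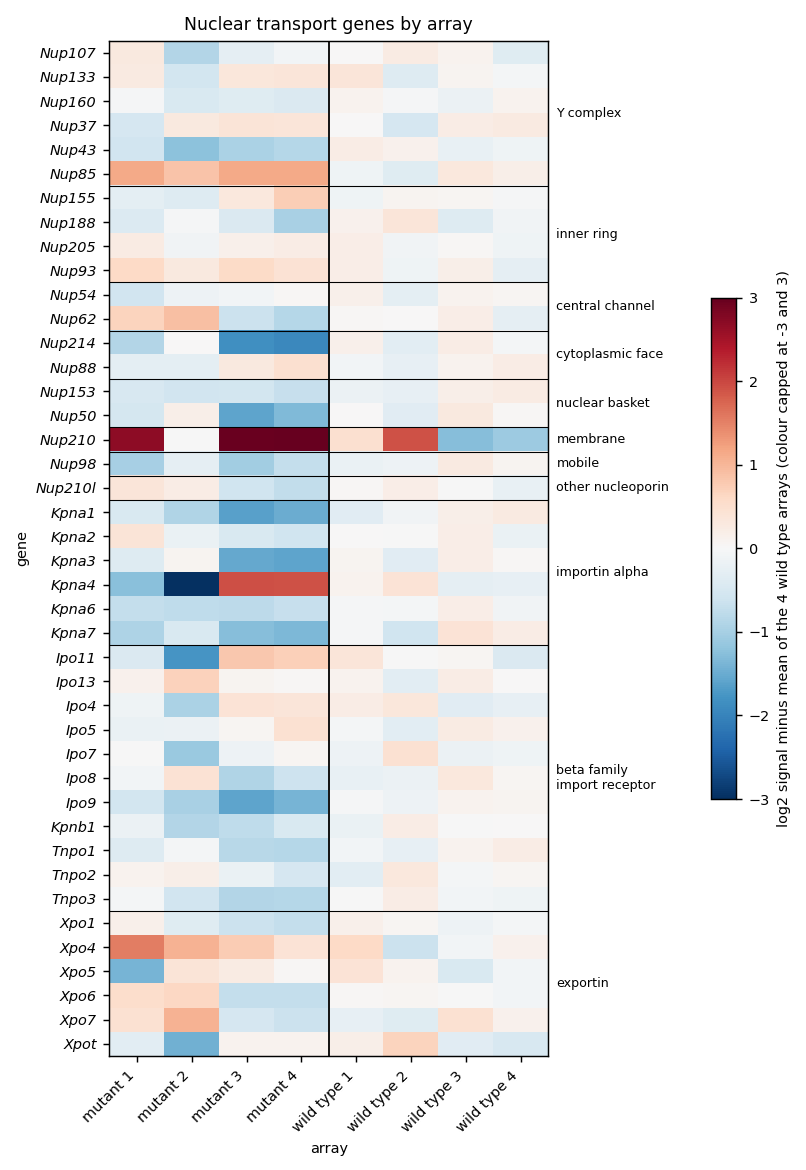
Log2 signal of each of the 42 genes (rows, grouped by role) on each array (columns, 4 Brg1 mutant arrays left of 4 wild type arrays), minus the mean of the 4 wild type arrays, with the colour capped at -3 and 3. Nup85 is red on all 4 mutant arrays, Nup43, Kpna6 and Ipo9 are blue on all 4, and Kpna4 is blue on mutant arrays 1 and 2 and red on arrays 3 and 4.

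The 3 calls were lost when any of 6 arrays was left out and kept without either of 2. Without any 1 of the wild type replicates, or without mutant replicate 3 or 4, limma called 0 of the 40 genes (9 to 11 at an unadjusted p under 0.05, against 14 with all arrays), while over all genes between 0.411% and 2.21% were still called. Without mutant replicate 1 it called 5 and without mutant replicate 2 it called 10, each time with Nup85, Nup43 and Ipo9 among them. Over all genes 13% and 13.9% were called in these fits. With all arrays kept, Nup43 lost its call with quantile normalization, without the filter on dim probe sets, without the intensity trend and with the probe sets of a gene averaged (limma adjusted p = 0.0615, 0.0583, 0.0623 and 0.054). With the replicate number as a block all 3 calls were lost, and 0.0754% of all genes were called. Array scaling also moved the split between higher and lower. With all 8 arrays centred on their medians, or on their 75th percentiles, 0 genes rose and 4 fell, Ipo9, Kpna1, Kpna6 and Nup43. Over all genes 9.53% and 7.67% were called. The median log2 change of all genes then stood at -0.22 and -0.19, in place of -0.05. With quantile normalization Nup85 rose and Nup214 fell, and 6.35% of all genes were called.

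The Y complex, the outer scaffold ring of the pore, held both a gene that rose and a gene that fell. Nup85, which encodes a subunit of the short arm of the Y, read 480.3, 400.2, 481.1 and 485.5 in mutants, against 201.8, 171.9, 272.4 and 247.3 in wild type. Every mutant array lay above every wild type array. The means were 462 ± 41.1 in mutants and 223 ± 45.1 in wild type (SD, n = 4 each), a 2.09-fold rise (log2 change 1.07, SE 0.23, limma adjusted p = 0.0272). The gene's other probe set read 418.7, 369.3, 384 and 397.7 in mutants, against 164.2, 170, 225.9 and 193.9 in wild type. It passed as well, again with no overlap (log2 change 1.07, SE 0.21, limma adjusted p = 0.0216). On the brightest probe set the rise was of similar size in both pairs of mutant arrays. It was 0.996 without replicates 3 and 4, where the call was lost, and 1.14 without replicates 1 and 2 (limma adjusted p = 0.0582 and 0.00432). The other probe set passed in both of these fits (log2 change 1.07 and 1.06, limma adjusted p = 0.0364 and 0.00377). The call of the brightest was also lost on centring on the median (log2 change 0.89, limma adjusted p = 0.0634) or the 75th percentile (0.92, limma adjusted p = 0.0536), where the change still pointed up. The replicate number as a block lost the call as well.

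Nup43, a propeller protein that binds the short arm beside Nup85, moved the other way. Its signal was 433.7, 275.1, 335.6 and 357.8 in mutants, against 752.3, 703, 554.4 and 590.9 in wild type. All mutant arrays were below all wild type arrays, with means of 351 ± 65.5 in mutants and 650.1 ± 92.9 in wild type (SD, n = 4 each), a 1.86-fold fall (log2 change -0.90, SE 0.23, limma adjusted p = 0.0442). The second probe set of Nup43 read 302.1, 208.7, 245.4 and 257.9 in mutants, against 452.2, 444.2, 357.6 and 351.5 in wild type. These groups did not overlap either, but the change did not pass (log2 change -0.67, SE 0.22, limma adjusted p = 0.0985). Without replicates 3 and 4 the log2 change of Nup43 was -0.90, and without replicates 1 and 2 it was -0.90 (limma adjusted p = 0.0749 and 0.006). The size was alike in both pairs, and the call was lost with replicates 1 and 2 alone. Seh1l, which encodes another protein of the short arm, read 664.5 to 1438.2 in mutants and 1381.6 to 1731.5 in wild type and did not pass (log2 change -0.60, SE 0.28, limma adjusted p = 0.208).

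The remaining Y complex genes did not pass. Nup107 and Nup133 encode the stem of the Y, and their log2 changes were -0.24 and 0.11 (limma adjusted p = 0.655 and 0.851). Nup160 and Nup37 encode the long arm, with log2 changes of -0.32 and 0.13 (limma adjusted p = 0.365 and 0.82). Nup37 read 583.8 to 1084 in mutants and 584.9 to 1006.7 in wild type, so the groups overlapped across nearly their whole range.

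**Figure D2:**
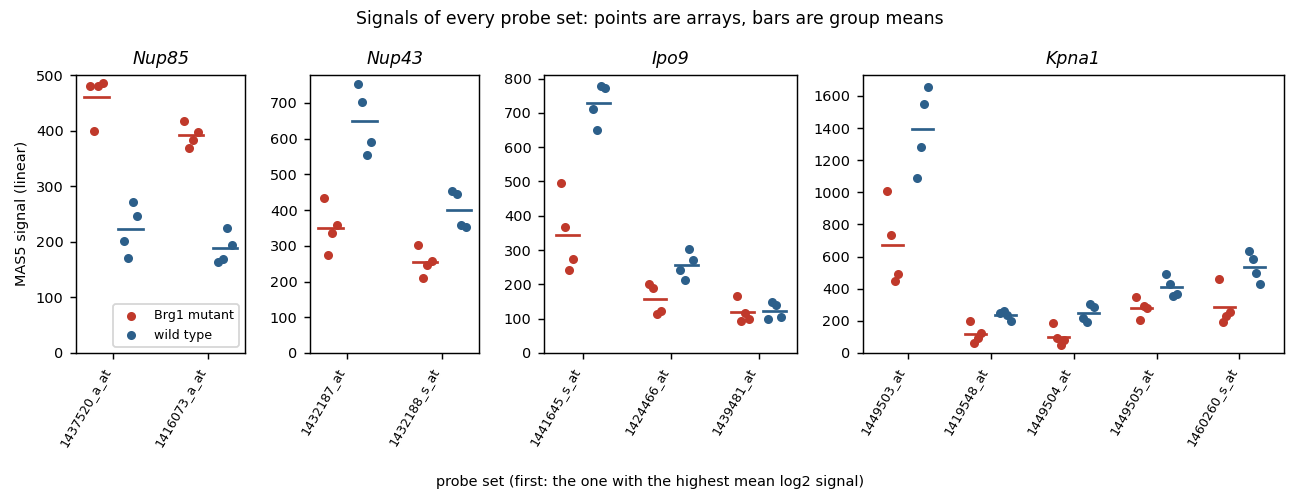
MAS5 signal on a linear axis from 0 for every probe set of Nup85, Nup43, Ipo9 and Kpna1; red points are the 4 Brg1 mutant arrays, blue points the 4 wild type arrays, and bars the group means. Both probe sets of Nup85 are higher and both of Nup43 lower in mutants, while the last probe set of Ipo9 has overlapping groups.

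Inner ring genes, which encode the scaffold around the channel, had small changes of both signs, and 0 of 4 passed. Nup93, the hub of the ring, was higher on every mutant array. It read 329.2, 267.3, 324.1 and 297.5 in mutants, against 251, 201.5, 247.8 and 182.5 in wild type. The change did not pass (log2 change 0.47, SE 0.22, limma adjusted p = 0.21). It did not pass in either pair apart (log2 change 0.44 and 0.51, limma adjusted p = 0.321 without replicates 3 and 4 and 0.0904 without replicates 1 and 2). Nup205 and Nup155 had log2 changes of 0.13 and 0.093, and Nup188 of -0.46 (limma adjusted p = 0.745, 0.875 and 0.331). Another probe set of Nup155 differed in sign from the first (log2 change -0.78, limma adjusted p = 0.097).

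Nup62, the main repeat protein of the channel, showed how the probe sets of 1 gene can part. Its brightest probe set has a name that ends in _x_at, the mark of probes that can also match other transcripts. It read 11036.4, 12999.5, 4497.9 and 3844.4 in mutants, against 7206.2, 7105.9, 7999.3 and 5834.7 in wild type. Mutant replicates 1 and 2 were above and replicates 3 and 4 below all wild type arrays, and over all arrays the change was near 0 (log2 change 0.013, SE 0.40, limma adjusted p = 0.989). Mutant replicates 1 and 2 alone were higher than wild type (log2 change 0.78, limma adjusted p = 0.0341), the one call among the 40 genes in that fit. Replicates 3 and 4 alone were lower (log2 change -0.75, limma adjusted p = 0.00543). Of 4 other tested probe sets of Nup62, 3 had negative changes, between -0.93 and -0.59, and 1 a positive change of 0.32, and none passed (limma adjusted p = 0.131 to 0.588). On the 3 with negative changes, replicates 1 and 2 lay at -0.37 to -0.089 log2 units from wild type, without the rise seen on the brightest, while the one with a positive change stood at 0.79 there. Nup54, its partner in the channel, had a log2 change of -0.19 (limma adjusted p = 0.644).

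On the cytoplasmic face, Nup214, a docking site for messenger RNA export factors, read 2691.4, 4949, 1378.3 and 1296.6 in mutants, against 5500.3, 4004.9, 5754.8 and 4725.7 in wild type. The groups overlapped because mutant replicate 2 lay within the wild type range, and the change did not pass (log2 change -1.16, SE 0.41, limma adjusted p = 0.108). Without replicates 1 and 2 it was -1.89 (limma adjusted p = 7.66e-05), against -0.44 without replicates 3 and 4 (limma adjusted p = 0.327). Its binding partner Nup88 read 449.7 to 759 in mutants and 459.2 to 634 in wild type (log2 change 0.049, SE 0.25, limma adjusted p = 0.93).

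In the nuclear basket, Nup153, which tethers the basket and takes part in pore assembly, read 1143.2, 1080, 1092.1 and 989.3 in mutants, against 1414.5, 1359.7, 1816.2 and 1895.6 in wild type. On this probe set all mutant arrays lay below all wild type arrays and the mutants were close to one another. Means were 1076 ± 64.1 in mutants and 1622 ± 274 in wild type (SD, n = 4 each), but the change did not pass (log2 change -0.58, SE 0.21, limma adjusted p = 0.125). The other tested probe set of Nup153 read 601.2, 942.1, 420.9 and 463.1 in mutants, against 809.8, 638.9, 1124.8 and 892.9 in wild type. There the groups overlapped (log2 change -0.56, SE 0.30, limma adjusted p = 0.275). Its log2 change was -0.17 without replicates 3 and 4 and -0.94 without replicates 1 and 2 (limma adjusted p = 0.747 and 0.0107). Nup50, which helps importin alpha to let go of its cargo, read 532.5 to 1796.2 in mutants and 1260.4 to 1952.9 in wild type on its brightest probe set and did not pass (log2 change -0.82, SE 0.37, limma adjusted p = 0.193). A dimmer probe set of Nup50 read 439.3, 300.8, 321.7 and 304.1 in mutants, against 762.2, 633.2, 715.4 and 696.1 in wild type. It had no overlap and did pass (log2 change -1.05, SE 0.22, limma adjusted p = 0.0237). The last tested probe set of Nup50 read 231.9, 394.3, 114.4 and 102.5 in mutants, against 286.4, 171.4, 364 and 357 in wild type. Its groups overlapped and it did not pass (log2 change -0.64, SE 0.44, limma adjusted p = 0.396). This one and the brightest read higher in mutant replicates 1 and 2 than in replicates 3 and 4, a gap that the probe set that passed did not show.

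The transcript of Nup98 encodes a mobile repeat protein and the scaffold protein Nup96 in 1 chain. Its brightest probe set was lower on every mutant array. It read 775.7, 1289, 749.3 and 932 in mutants, against 1344.9, 1380.5, 1871.1 and 1627.9 in wild type. The change did not pass (log2 change -0.75, SE 0.25, limma adjusted p = 0.0915). The other probe set of Nup98 read 430.9 to 570.8 in mutants and 545.5 to 706.1 in wild type, with overlapping groups (log2 change -0.31, SE 0.21, limma adjusted p = 0.396). Nup210, a membrane protein of the pore, fell just short of the mean log2 signal that was tested, of which the lowest was 5.25. It read 115, 17.8, 140.9 and 144.7 in mutants, against 24.8, 66.8, 7.4 and 8.4 in wild type. The log2 means were 6.33 and 4.16, a log2 change of 2.17, the largest among the 42 genes. With the filter dropped, limma tested all 42 genes and did not call Nup210. On 1 mutant array and 3 wild type arrays it was under the background bound set by bacterial control probe sets, which was 14.7 to 37.7 depending on the array. Nup210l read at most 15.7 and stayed under that bound on all 8 arrays.

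Importin alphas all had negative changes, a median of -0.80 over 6 genes on the log2 scale beside -0.05 over all genes, but 0 of 6 passed (limma, 4 at an unadjusted p under 0.05, as were 14 of all 40 members and 3225 of all 11934 genes). For 2 of the 6, Kpna2 and Kpna4, the sign differed between the pairs of mutant arrays (33.3%, beside 41.4% of all genes). Kpna4 had a negative log2 change although its mean signal was higher in mutants, at 229 against 117 in wild type. Its reading of 2.5 on mutant replicate 2 was under the background bound. Kpna1 and Kpna6 missed the threshold narrowly and both separated the groups. Kpna6, which the mouse oocyte must supply for embryos to pass the 2-cell stage, read 539.6, 518.8, 515.5 and 544.6 in mutants, against 866.6, 851.2, 1009 and 815.2 in wild type. The mutant arrays spanned only 515.5 to 544.6, all below the lowest wild type array, and the means were 529.6 ± 14.6 in mutants and 886 ± 85.1 in wild type (SD, n = 4 each). The change just missed the threshold (log2 change -0.74, SE 0.20, limma adjusted p = 0.0506). The log2 change was -0.74 in either pair apart (limma adjusted p = 0.0714 without replicates 3 and 4 and 0.00846 without replicates 1 and 2), and the second probe set had one of -0.94 (limma adjusted p = 0.0655).

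Kpna1 read 1008, 737.1, 446 and 491.5 in mutants, against 1088.8, 1280.4, 1550.1 and 1653.4 in wild type. Mutant replicates 3 and 4 were the lowest and no mutant array reached the wild type range (log2 change -1.11, SE 0.30, limma adjusted p = 0.051). All 4 other probe sets of Kpna1 had negative changes, from -1.43 to -0.55, and 1 of them passed, with the largest change (limma adjusted p = 0.0478). The log2 change was -0.67 without replicates 3 and 4 and -1.55 without replicates 1 and 2 (limma adjusted p = 0.133 and 0.000444). Kpna1 and Kpna6 each passed under 7 of 13 other settings, among them centring on the median (limma adjusted p = 0.0297 and 0.0318) and averaging the probe sets of a gene (limma adjusted p = 0.0441 and 0.0343). The 7 include array weights and the fit without mutant replicates 1 and 2, where 52.7% and 43.5% of all genes passed. Settings where both missed include quantile normalization (limma adjusted p = 0.0623 and 0.0761) and the replicate number as a block (limma adjusted p = 0.14 and 0.141).

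Kpna7 and Kpna2 belong to the same branch of the family, and Kpna7 is the form found mainly in oocytes and cleavage embryos. Kpna7 read 388.2, 532.6, 300.9 and 287.5 in mutants, against 713.7, 481.6, 981.5 and 863.7 in wild type, on a single probe set. Mutant replicate 2 lay above the lowest wild type array and the other 3 mutant arrays lay below the wild type range. Means were 377 ± 113 in mutants and 760.1 ± 216 in wild type (SD, n = 4 each), and the change did not pass (log2 change -1.01, SE 0.30, limma adjusted p = 0.067). It was -0.69 without replicates 3 and 4 and -1.32 without replicates 1 and 2, where it was called (limma adjusted p = 0.203 and 0.0048). Kpna2 read 7768.4, 5205.6, 4372.9 and 3951 in mutants, against 6066.7, 5901.9, 6847.4 and 5247.9 in wild type. Mutant replicates 2, 3 and 4 were below all wild type arrays and replicate 1 above them (log2 change -0.22, SE 0.27, limma adjusted p = 0.657). The 2 genes differ in the region around their start, shown here because the pair spans the range from an oocyte form to a broadly used one. The windows run from 250 bases before to 50 after the RefSeq start in GRCm38.p6, Kpna7 at chr5:145009587-145009886 and Kpna2 at chr11:106999476-106999775, both on the minus strand, and capitals mark every CG.
Kpna7: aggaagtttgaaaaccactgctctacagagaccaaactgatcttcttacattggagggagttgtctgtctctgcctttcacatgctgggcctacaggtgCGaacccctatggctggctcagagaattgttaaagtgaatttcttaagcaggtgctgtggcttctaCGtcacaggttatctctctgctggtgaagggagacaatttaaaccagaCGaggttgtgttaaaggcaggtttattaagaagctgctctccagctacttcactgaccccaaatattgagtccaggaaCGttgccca
Kpna2: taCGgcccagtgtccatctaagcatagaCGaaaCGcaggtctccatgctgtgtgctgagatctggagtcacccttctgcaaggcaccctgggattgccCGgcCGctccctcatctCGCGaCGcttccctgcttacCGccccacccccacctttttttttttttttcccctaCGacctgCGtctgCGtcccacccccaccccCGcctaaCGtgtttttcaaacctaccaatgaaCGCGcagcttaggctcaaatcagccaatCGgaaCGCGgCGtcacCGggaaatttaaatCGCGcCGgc
Kpna7 has 4 CG pairs in its window and Kpna2 has 24, where the median over 27025 genes was 7 and that over the 34 matched nuclear transport genes was 28. The CCAAT box occurs once in the Kpna7 window, on the opposite strand, and in 2 copies in that of Kpna2. The GC box GGGCGG occurs once in Kpna2, on the opposite strand, and not in the letters of the Kpna7 window. Neither window holds TATAAA, or TAATTG, a sequence bound by the oocyte factor NOBOX.

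Kpna3 and Kpna4, which form another branch, parted between the pairs of mutant arrays. Kpna3 read 1901.3, 2634.4, 852.5 and 835.4 in mutants, against 2623.9, 1977.7, 2869.1 and 2568.9 in wild type. Mutant replicates 1 and 2 were in or just below the wild type range and replicates 3 and 4 far below it (log2 change -0.86, SE 0.38, limma adjusted p = 0.187). Its log2 change was -0.15 without replicates 3 and 4 and -1.56 without replicates 1 and 2 (limma adjusted p = 0.716 and 0.000228). Both other probe sets of Kpna3 had negative changes too, -1.09 and -0.89 (limma adjusted p = 0.129 and 0.114). Kpna4 read 48.2, 2.5, 435.1 and 430.2 in mutants, against 123.8, 153.6, 94.8 and 96.1 in wild type. Replicates 3 and 4 were above and replicates 1 and 2 below all wild type arrays, with replicate 2 under the background bound, and over all arrays the change did not pass (log2 change -0.74, SE 1.35, limma adjusted p = 0.783). It was 1.91 without replicates 1 and 2 (limma adjusted p = 0.000433) and -3.39 without replicates 3 and 4 (limma adjusted p = 0.0556). The second probe set of Kpna4 read at most 43.2 and was too dim to be tested.

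**Figure D3:**
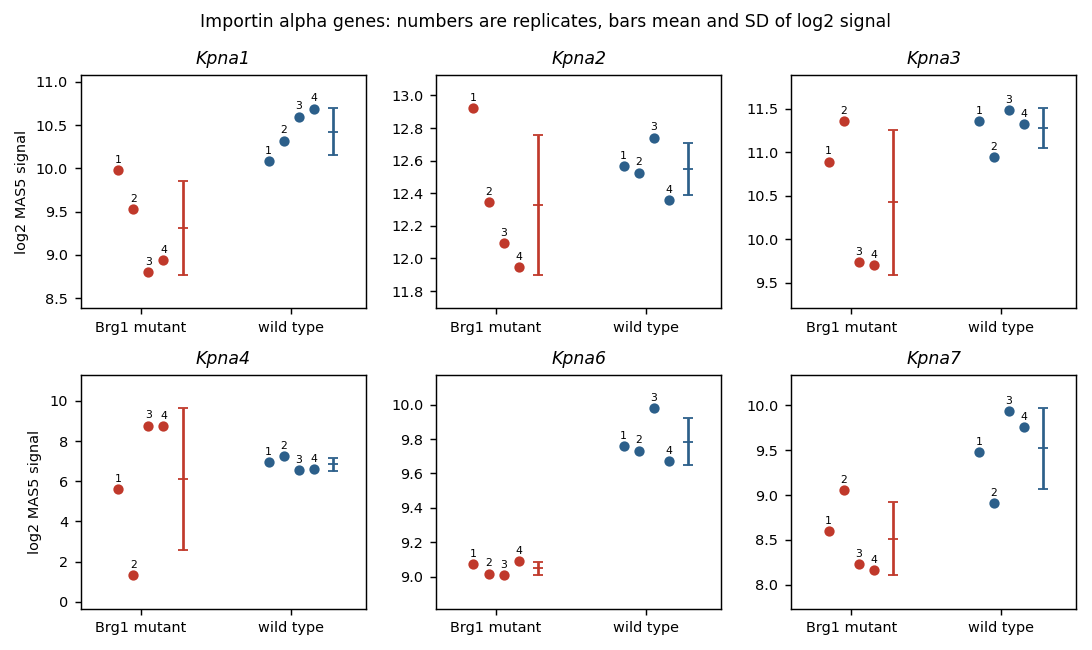
Log2 MAS5 signal of the 6 importin alpha genes; red points are Brg1 mutant arrays and blue points wild type arrays, numbered by replicate, with bars for the mean and SD of log2 signal in each group of 4 (axes differ and do not start at 0). Kpna6 is tightly grouped and lower in mutants, and Kpna4 is high on mutant arrays 3 and 4 and low on arrays 1 and 2.

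Among import receptors of the beta family, 1 of 11 fell, 0 rose and 10 did not pass. Ipo9, which carries histones H2A and H2B and actin into the nucleus, read 495.8, 368, 241.4 and 275.2 in mutants, against 709.9, 650.6, 777.5 and 771.4 in wild type. Every mutant array lay below every wild type array, and the wild type arrays were close together. The means were 345 ± 114 in mutants and 727 ± 59.6 in wild type (SD, n = 4 each), a 2.19-fold fall (log2 change -1.13, SE 0.26, limma adjusted p = 0.0336). A second probe set read 200.8, 189.7, 115 and 121.6 in mutants, against 241.4, 212.5, 302.7 and 270.2 in wild type. Its groups did not overlap and the change did not pass (log2 change -0.74, SE 0.27, limma adjusted p = 0.119). The last read 94.6 to 164.8 in mutants and 100.4 to 148.4 in wild type, with overlapping groups (log2 change -0.078, SE 0.28, limma adjusted p = 0.896). The log2 change of Ipo9 was -1.49 without replicates 1 and 2 and -0.76 without replicates 3 and 4, where the call was lost (limma adjusted p = 0.000271 and 0.0807). It was also lost with quantile normalization (log2 change -1.10, limma adjusted p = 0.0548), with its probe sets averaged (-0.65, limma adjusted p = 0.117) and with the replicate number as a block (limma adjusted p = 0.1). Without probe sets ending in _x_at and _s_at the second one stood for the gene and did not pass.

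Ipo9 is the one gene of the 3 that passed with a window in the RefSeq promoter table, and its sequence is shown for that reason, with CG in capitals. It lies at chr1:135430450-135430749 on the minus strand of GRCm38.p6 and is the first of 2 windows listed.
Ipo9: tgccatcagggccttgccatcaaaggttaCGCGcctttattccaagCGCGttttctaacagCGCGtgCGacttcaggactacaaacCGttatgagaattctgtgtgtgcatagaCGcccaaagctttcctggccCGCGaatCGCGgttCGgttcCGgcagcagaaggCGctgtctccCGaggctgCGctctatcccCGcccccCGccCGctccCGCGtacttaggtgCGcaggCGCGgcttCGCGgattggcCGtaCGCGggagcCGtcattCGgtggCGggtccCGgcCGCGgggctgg
The Ipo9 window holds 37 CG pairs, more than 94.6% of the windows of all genes. It has 1 CCAAT and 2 GGGCGG, all on the opposite strand, and no TATAAA. Of the 42 genes, 34 matched the table, and Kpna1, Kpna3, Kpna6, Nup43, Nup85, Nup210l, Xpo4 and Xpo7 did not. On either strand CCAAT occurred in 55.9% of these 34 windows and in 37.9% of all 27025, GGGCGG in 67.6% and 35.9%, TATAAA in 5.88% and 14.2%, and TAATTG in 0 of 34 and 8.15%. The count of CG ran from 4, in Kpna7, to 47, in Ipo5. These are matches of letters and not binding sites.

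Kpnb1, importin beta itself, read 739.4, 455.3, 495.1 and 609.4 in mutants, against 731.1, 974.6, 829.2 and 842.5 in wild type on its brightest probe set, an _x_at one. The change did not pass (log2 change -0.57, SE 0.23, limma adjusted p = 0.153). Its 2 other tested probe sets had opposite signs, with log2 changes of -0.43 and 0.48 (limma adjusted p = 0.339 and 0.348). Tnpo1, transportin, which carries RNA-binding proteins such as hnRNP A1, read 577.7 to 1010.3 in mutants and 888.7 to 1224.8 in wild type (log2 change -0.54, SE 0.25, limma adjusted p = 0.21). Another of its probe sets had a positive log2 change (0.42, limma adjusted p = 0.298). Tnpo3, the receptor for SR splicing factors, had a log2 change of -0.59 and the transportin relative Tnpo2 one of -0.10 (limma adjusted p = 0.167 and 0.837). On both tested extra probe sets of Tnpo3 the change was negative as well (-0.84 and -0.73).

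Ipo8, a receptor that has been tied to SMADs and Argonaute proteins, read 886.4 to 2247.8 in mutants and 1416.8 to 2059.3 in wild type (log2 change -0.29, SE 0.31, limma adjusted p = 0.609). Its relative Ipo7, which imports ribosomal proteins, read 708.8, 332.5, 637.2 and 745.4 in mutants, against 646.7, 981.8, 629 and 649.9 in wild type. Mutant replicate 2 was the lowest and wild type replicate 2 the highest (log2 change -0.30, SE 0.30, limma adjusted p = 0.576). Ipo4 and Ipo5, both importers of histones, had log2 changes of -0.077 and 0.031 (limma adjusted p = 0.914 and 0.956). Ipo13, which works in both directions, had one of 0.23 (limma adjusted p = 0.625). Ipo11, a receptor for ubiquitin-conjugating enzymes, read 78.8, 31.2, 186.6 and 173.4 in mutants, against 137.4, 105.2, 111.1 and 78.7 in wild type. Mutant replicates 3 and 4 were above all wild type arrays and replicate 2 far below them (log2 change -0.17, SE 0.52, limma adjusted p = 0.878).

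None of the 6 exportins passed, and the groups overlapped for all of them (2 of 6 had a positive change, 1 of 6 an unadjusted p under 0.05). Xpo1, the receptor for leucine-rich export signals, read 2282.4, 1597.5, 1297.6 and 1247.4 in mutants, against 2250.3, 2142.9, 1841.2 and 1955.4 in wild type. Mutant replicate 1 was just above the wild type range and the other 3 mutant arrays lay below it (log2 change -0.39, SE 0.25, limma adjusted p = 0.36). Its log2 change was -0.10 without replicates 3 and 4 and -0.68 without replicates 1 and 2 (limma adjusted p = 0.818 and 0.00762). Its second tested probe set read 639.6, 673, 719 and 854.2 in mutants, against 948.2, 1017.1, 1001.1 and 889.5 in wild type. There all 4 mutant arrays were below all wild type arrays, but the change did not pass (log2 change -0.42, SE 0.20, limma adjusted p = 0.221). Xpo4, which exports the translation factor eIF5A, had the largest positive change among exportins. It read 288.8, 205.9, 170.7 and 133.9 in mutants, against 152.4, 64.2, 94.6 and 110 in wild type. Mutant replicate 4 lay inside the wild type range (log2 change 0.93, SE 0.34, limma adjusted p = 0.118).

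Xpo7, a receptor of broad cargo, and Xpo6, which exports actin with profilin, split by mutant pair. Xpo6 read 519.3, 549.4, 217.6 and 219.8 in mutants, against 364.3, 374.9, 353.8 and 340.6 in wild type. Replicates 1 and 2 were above and replicates 3 and 4 below a narrow wild type range (log2 change -0.068, SE 0.34, limma adjusted p = 0.929). Xpo7 read 2329.5 to 7450.7 in mutants and 2837.5 to 5008.1 in wild type (log2 change 0.091, SE 0.39, limma adjusted p = 0.914). Its log2 change was 0.75 without replicates 3 and 4 and -0.57 without replicates 1 and 2 (limma adjusted p = 0.119 and 0.0737). Xpo5, the exporter of microRNA precursors, read 28.1 to 95.6 in mutants and 53.9 to 98.3 in wild type (log2 change -0.18, SE 0.41, limma adjusted p = 0.831).

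Xpot, the transfer RNA exporter, gave opposite signs on its probe sets. The brightest read 415.1, 189.9, 559.2 and 556.9 in mutants, against 582.1, 816.8, 406.6 and 372.8 in wild type. Those groups overlapped (log2 change -0.39, SE 0.39, limma adjusted p = 0.579). A second read 289.8, 287.3, 517.4 and 737.7 in mutants, against 203.3, 241.6, 63.7 and 169.4 in wild type. Here every mutant array was above every wild type array, yet the change did not pass (log2 change 1.48, SE 0.46, limma adjusted p = 0.0769). Another read 113.9, 22.7, 304 and 391.3 in mutants, against 57.4, 76.7, 26.9 and 33.3 in wild type. Replicates 3 and 4 stood far above all other arrays (log2 change 1.57, SE 0.78, limma adjusted p = 0.24). Over all 42 genes, 25 had at least 1 further tested probe set. For 15 of them every such probe set had the sign of the brightest. For 10 at least 1 did not, namely Ipo5, Kpnb1, Tnpo1, Tnpo2, Nup54, Nup62, Xpo7, Xpot, Nup155 and Nup205. Of the 41 further probe sets that were tested, 3 passed, those of Nup85, Nup50 and Kpna1 given above, beside 6.56% of all tested probe sets, 2.98% higher and 3.58% lower.

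The pairs of mutant arrays were set against the same 4 wild type arrays, so these comparisons share their wild type values. Without mutant replicates 3 and 4, 1 of 40 genes was called, Nup62, beside 7.44% of all genes, 3.86% higher and 3.58% lower. Without mutant replicates 1 and 2, 21 of 40 were called (52.5%), 3 higher and 18 lower, beside 43.5% of all genes, 19.2% higher and 24.4% lower. Nup85, Kpna4 and Ipo11 were the 3 that were higher. Among importin alphas 6 of 6 were called without replicates 1 and 2, 5 lower and Kpna4 higher, and 0 of 6 without replicates 3 and 4. The median log2 change of the 40 was -0.26 without replicates 3 and 4, beside 0.041 over all genes. Without replicates 1 and 2 it was -0.46, beside -0.19 over all genes. Both comparisons had a negative change for 19 genes and a positive one for 5, Nup85, Nup93, Nup205, Xpo4 and Ipo13, and the sign differed for 16 (40%), beside 41.4% of all genes. Granulosa marker signal, given above, stood high on the same arrays 3 and 4, and its part in these counts was not tested.

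**Figure D4:**
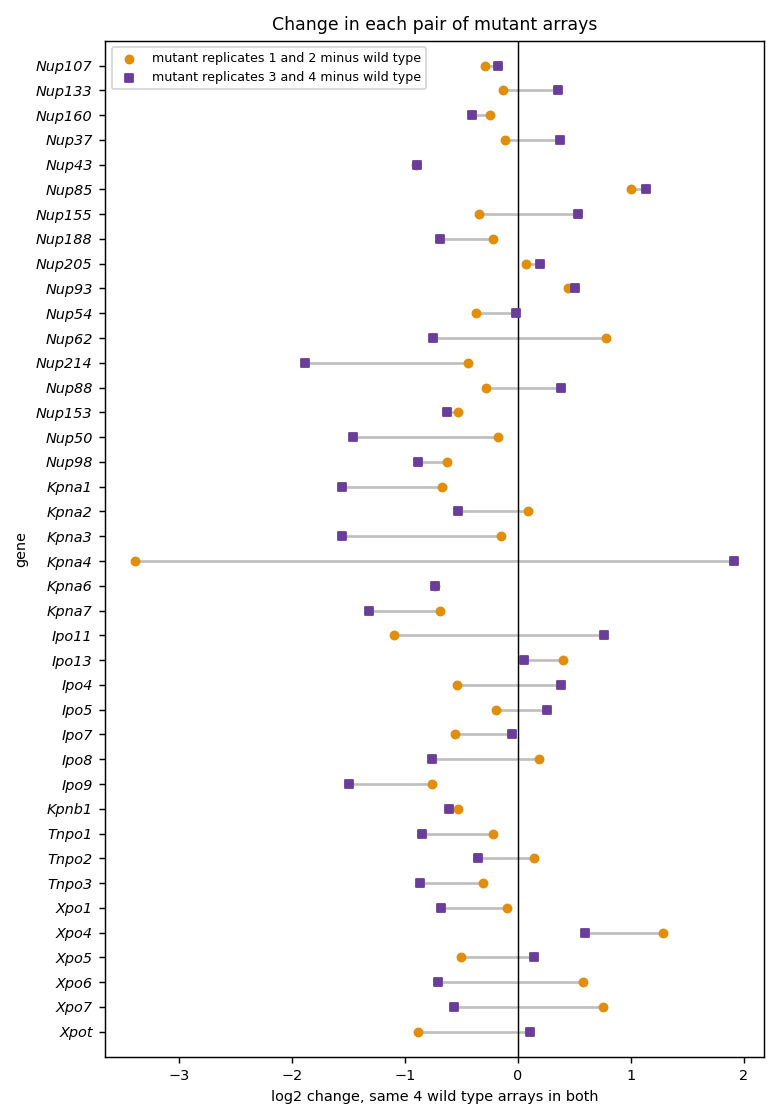
Log2 change of the 40 tested genes from the fit with mutant replicates 1 and 2 (orange circles) and the fit with mutant replicates 3 and 4 (purple squares), each minus the same 4 wild type arrays; a grey line joins the values of a gene. Nup85, Nup43 and Kpna6 have nearly the same change in both, Nup214, Kpna3 and Nup50 are lower mainly with replicates 3 and 4, and Kpna4 has opposite signs.

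Other genes of nuclear transport were taken from a list of 52 names, of which 41 had a probe set with 1 symbol and 40 were tested. Of these, 3 fell, 0 rose and 37 did not pass (7.5%, beside 7.04% of all genes). Nxt1, the partner of the messenger RNA export receptor Nxf1, read 514.3, 271.5, 422.2 and 336.1 in mutants, against 1332.3, 799.7, 932.8 and 853.3 in wild type. No mutant array reached the wild type range, and the means were 386 ± 105 in mutants and 979.5 ± 241 in wild type (SD, n = 4 each), a 2.56-fold fall (log2 change -1.35, SE 0.27, limma adjusted p = 0.0217). It was alike in the pairs, -1.36 without replicates 3 and 4 and -1.35 without replicates 1 and 2 (limma adjusted p = 0.036 and 0.00196). Nxf1 itself read 301.4 to 420.5 in mutants and 372.3 to 880.8 in wild type (log2 change -0.72, SE 0.32, limma adjusted p = 0.182).

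Snupn, snurportin, the adaptor that brings splicing ribonucleoproteins back into the nucleus, read 912.9, 553.3, 379.3 and 482.6 in mutants, against 1585.2, 1196.1, 1075.9 and 1193.8 in wild type. The groups did not overlap (log2 change -1.18, SE 0.29, limma adjusted p = 0.0398). A further probe set had a similar change that did not pass (log2 change -1.15, limma adjusted p = 0.0592). The last, a dim one, had overlapping groups (log2 change -0.42, limma adjusted p = 0.529). Without mutant replicates 3 and 4 the call of Snupn was lost (log2 change -0.81, limma adjusted p = 0.0986). Ddx39a, a helicase of messenger RNA export, read 3595.9, 2220.9, 2372 and 1669.3 in mutants, against 4773.7, 4809.6, 5078.8 and 4317.5 in wild type on its brightest probe set, an _x_at one. Again no mutant array reached the wild type range (log2 change -0.998, SE 0.26, limma adjusted p = 0.0498). Of its 4 other probe sets all had negative changes and 1, not an _x_at one, passed (log2 change -1.14, limma adjusted p = 0.0255). Without replicates 3 and 4 the brightest probe set lost its call (limma adjusted p = 0.0709). The other one that passed kept its call there (log2 change -0.95, limma adjusted p = 0.0416). The gene was also not called once probe sets ending in _x_at and _s_at were left out. In that setting a brighter probe set that had not passed stood for the gene.

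Ran, the GTPase that drives the cycle, read 10216.2, 6986.3, 5282.2 and 4107.4 in mutants, against 4988, 4617.5, 5336 and 4480.6 in wild type, also on an _x_at probe set. Mutant replicates 1 and 2 were above all wild type arrays and replicates 3 and 4 were in or just below their range, and over all arrays the change did not pass (log2 change 0.37, SE 0.30, limma adjusted p = 0.473). Without replicates 3 and 4 Ran was called higher (log2 change 0.80, limma adjusted p = 0.0412), and without replicates 1 and 2 its log2 change was -0.057 (limma adjusted p = 0.795). Its partners Rcc1, the exchange factor, and Rangap1, the activating protein, had log2 changes of -0.58 and -0.35 (limma adjusted p = 0.243 and 0.576). Cse1l, which returns importin alpha to the cytoplasm, read 303.5 to 602.5 in mutants and 584.2 to 842.8 in wild type (log2 change -0.46, SE 0.27, limma adjusted p = 0.327). Of the pore proteins on the list, Pom121 and Ndc1, which anchor the pore in the membrane, had log2 changes of -0.46 and 0.57, and Ahctf1, which starts pore assembly on chromatin, one of -0.53 (limma adjusted p = 0.46, 0.258 and 0.175).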

How the data were processed

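The deposited values were array intensities on a linear scale, 1 signal per probe set, made by the authors with MAS5 per the submitters' processing notes. The sources used here name no version. Every array already had a 2% trimmed mean of 150, and no further scaling was applied. A floor of 1 was set before log2. Of 45037 probe sets, control ones (64) left aside, the upper 50% by mean log2 signal entered limma 3.58.1 in R 4.3.3, which moderates each variance along a trend in intensity. Tests were two-sided, adjusted by Benjamini-Hochberg over all 22518 and called at 0.05. SE is the standard error of the log2 change. Symbols came from the platform annotation. The background bound is the 95th percentile of 27 bacterial control probe sets per array. Marker lists covered granulosa and cumulus, oviduct, sperm, blood and leukocytes, and oocyte and embryo. The fit was tested on simulated data. The number of arrays limits the precision.

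Genes named by rule were those that passed, those with separated groups and a change of at least 1, the brightest per role, Kpna2, Kpna7, Kpnb1, Xpo1, Nup98, Cse1l, Ran, Smarca4, passing genes of the other list and the 4 granulosa markers with the highest mutant signal; the rest were named after their values were seen. Genes and lists were chosen with earlier results of these data known. Alternatives changed scaling, filter, floor, variance model, array weights, replicate block and probe sets, and left out arrays. No pairing by number was seen: deviations of same-numbered arrays correlated at -0.18 to 0.02, against at most 0.20 for arrays of different number. With 4 arrays per group and the mutant arrays split into pairs, these values cannot exclude a pairing.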

Additional observations from a re-analysis of the deposited data

Results flagged for a closer look

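In 84 groups of 4 arrays, 6 had 1 array far from the other 3 on the log2 scale by Dixon's criterion, which chance gives in about 1 of 20 groups. Mutant replicate 2 was such an array for Ipo13 (log2 signal 7.97, signal 251.6, against 159.6 to 170.5 on the other mutant arrays), for Nup210 (4.15, signal 17.8, against 115 to 144.7), for Nup133 (7.28, signal 155.8, against 274.5 to 292) and for Nup85 (8.64, signal 400.2, against 480.3 to 485.5). Mutant replicate 1 was the array for Nup37 (log2 signal 9.19, signal 583.8, against 1016.6 to 1084). Wild type replicate 2 was the array for Ipo7 (log2 signal 9.94, signal 981.8, against 629 to 649.9 on the other wild type arrays). The Nup85 value still lies above every wild type array.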

How the results depend on the processing

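The 3 of 40 genes called became 5 in the upper 30% of probe sets (11.4% of all genes called). They became 5 with a larger constant added to the signal before log2 (7.52%). With array weights 25 were called (52.7%), and with the replicate number as a block 0 (limma, 9 at an unadjusted p under 0.05, and 0.0754% of all genes called). Without mutant replicates 3 and 4 the count was 1 (7.44%), and without replicates 1 and 2 it was 21 (43.5%). Other settings with all arrays gave 2 to 4 (3.46% to 9.53% of all genes), and leaving out 1 array gave 0 to 10 (0.411% to 13.9%). For other transport genes 3 became 1 with no filter, 1 with no intensity trend, 18 with array weights, 0 with the block (7 at an unadjusted p under 0.05), 1 with averaged probe sets and 12 without mutant replicates 1 and 2, and 0 to 6 without 1 array. The cause was not tested.

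Of 40 genes, 22 kept their sign in every fit; 18, all with a main change of at most 0.74 in size and none called, turned in at least 1. With median and 75th percentile centring the turned log2 changes were -0.14 and -0.11 for Ipo5, -0.16 and -0.13 for Nup62, -0.13 and -0.10 for Nup88, -0.085 and -0.054 for Xpo7, -0.083 and -0.052 for Nup155, -0.044 and -0.013 for Nup205, -0.067 and -0.036 for Nup133 and -0.047 and -0.016 for Nup37. With quantile normalization they were 0.022 for Ipo4, -0.52 for Nup62 and -0.092 for Xpo7. With array weights they were 0.74 for Ipo11, 0.46 for Ipo4, -0.58 for Nup62, 0.21 for Xpo5, -0.58 for Xpo7, 0.26 for Xpot and 1.69 for Kpna4. With averaged probe sets they were -0.18 for Ipo5, 0.071 for Ipo8, -0.39 for Nup62, 0.58 for Xpot, -0.45 for Nup155 and -0.072 for Nup205, and without _x_at and _s_at probe sets 0.48 for Kpnb1 and -0.59 for Nup62. Without mutant replicates 1 and 2 they were 0.76 for Ipo11, 0.38 for Ipo4, -0.75 for Nup62, 0.15 for Xpo5, -0.57 for Xpo7, 0.11 for Xpot and 1.91 for Kpna4; outside the 40, Ran turned to -0.057. Without mutant replicates 3 and 4 they were -0.19 for Ipo5, 0.18 for Ipo8, 0.14 for Tnpo2, -0.28 for Nup88, 0.58 for Xpo6, 0.086 for Kpna2, -0.35 for Nup155, -0.13 for Nup133 and -0.11 for Nup37. Without 1 array the ranges were -0.49 to 0.37 for Ipo11, -0.24 to 0.21 for Ipo4, -0.11 to 0.11 for Ipo5, -0.21 to 0.029 for Tnpo2, -0.28 to 0.31 for Nup62, -0.092 to 0.16 for Nup88, -0.37 to 0.22 for Xpo5, -0.30 to 0.15 for Xpo6, -0.23 to 0.33 for Xpo7, -1.62 to 0.86 for Kpna4, -0.13 to 0.25 for Nup155, -0.024 to 0.33 for Nup133 and -0.041 to 0.34 for Nup37.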
